A study of Mus musculus with 2 samples.

Results

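Hspa4l and its relatives of the HSP70/HSP110 family are ATP-driven chaperones, described here by their RNA levels in mouse testis. The members are the 10 genes Hspa4l, Hspa4, Hsph1, Hspa2, Hspa1l, Hspa1a, Hspa1b, Hspa8, Hspa5 and Hspa9, found by their Entrez gene IDs among the 44002 entries of the deposited table. They were chosen with the levels of both libraries already known, so their values are a description and carry no test. Hspa4l, Hspa2 and Hspa1l were set apart as 3 germ cell members, and the other 7 were taken as somatic members. These are labels of the genes, and the cells that their reads came from were not measured.

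The RNA was of testis, taken from BALB/c mice on postnatal day 45. The BPA group is labelled as exposed to BPA (bisphenol A), a plastics chemical with weak estrogenic activity, and the control group carries no treatment label. Each group (BPA testes and control testes below) is 1 poly(A) library for which 3 samples were mixed, so no spread within a group was measured and no difference between the conditions was tested. The sources used here do not give the dose, route or duration of exposure, nor whether the 3 samples were 3 animals.

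HSP70 proteins bind unfolded stretches of client proteins in a cycle of ATP binding and hydrolysis. J-domain proteins start the hydrolysis, and nucleotide exchange factors, among them the HSP110 branch of the same family, release ADP so that the client can leave. Male germ cells use their own members of the family: in mice, Hspa2 is needed for spermatocytes to complete meiosis, and males without Hspa4l have reduced fertility.

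The sequences shown are the regions around transcription starts, since heat shock factors act on this family through short repeats near the start. Whether these regions bear on the levels of the 2 libraries was not tested. RefSeq promoter windows (build GRCm38.p6, from 250 bases before to 50 bases after a start, printed 5′ to 3′ on the gene's strand) were found for 8 of the 10 members and for Plk4, the gene next to Hspa4l. The search covered the 8-letter heat shock element cores GAANNTTC and TTCNNGAA, each of which reads the same on both strands, and matches are printed in capitals. Hspa4l (chr3:40745363-40745662, plus strand) and Plk4 (chr3:40799701-40800000, plus strand) are shown because both were higher in BPA testes, Hspa2 (chr12:76404120-76404419, plus strand) as the germ cell member with the highest level per length, and Hsph1 (chr5:149636287-149636586, minus strand) and Hspa1a (chr17:34972107-34972406, minus strand) because they hold the core.
Hspa4l: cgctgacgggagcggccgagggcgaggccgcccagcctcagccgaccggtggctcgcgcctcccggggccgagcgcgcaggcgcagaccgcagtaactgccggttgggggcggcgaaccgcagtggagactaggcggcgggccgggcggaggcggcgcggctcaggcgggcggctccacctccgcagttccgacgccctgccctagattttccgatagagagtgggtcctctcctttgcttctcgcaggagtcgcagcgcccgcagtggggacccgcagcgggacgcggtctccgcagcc
Plk4: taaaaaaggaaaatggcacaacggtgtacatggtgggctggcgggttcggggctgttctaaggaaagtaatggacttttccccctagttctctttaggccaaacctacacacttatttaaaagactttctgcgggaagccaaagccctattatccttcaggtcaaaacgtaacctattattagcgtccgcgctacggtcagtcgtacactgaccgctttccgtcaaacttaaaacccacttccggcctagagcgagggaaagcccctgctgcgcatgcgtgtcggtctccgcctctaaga
Hspa2: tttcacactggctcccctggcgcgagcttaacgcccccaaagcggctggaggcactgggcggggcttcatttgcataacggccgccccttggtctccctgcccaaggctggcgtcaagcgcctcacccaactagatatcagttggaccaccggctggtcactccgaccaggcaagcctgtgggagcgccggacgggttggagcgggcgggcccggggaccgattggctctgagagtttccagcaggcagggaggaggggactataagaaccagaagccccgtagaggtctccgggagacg
Hsph1: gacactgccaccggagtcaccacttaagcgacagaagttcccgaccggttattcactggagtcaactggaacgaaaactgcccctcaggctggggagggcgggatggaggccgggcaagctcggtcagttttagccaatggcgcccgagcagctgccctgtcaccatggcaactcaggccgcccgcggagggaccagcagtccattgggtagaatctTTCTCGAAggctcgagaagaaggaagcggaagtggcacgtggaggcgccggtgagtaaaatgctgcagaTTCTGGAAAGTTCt
Hspa1a: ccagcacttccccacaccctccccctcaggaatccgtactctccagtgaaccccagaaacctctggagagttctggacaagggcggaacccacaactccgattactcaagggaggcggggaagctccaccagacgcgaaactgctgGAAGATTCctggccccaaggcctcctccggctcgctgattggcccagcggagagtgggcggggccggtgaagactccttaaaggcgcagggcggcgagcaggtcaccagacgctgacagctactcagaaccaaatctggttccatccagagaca

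Of the 8 members with a promoter window, 3 held a heat shock element core in it, namely Hsph1, Hspa1a and Hspa1b. Among all 27025 RefSeq promoter windows of this length, 15.1% held either core, with 7.95% holding GAANNTTC and 8.40% holding TTCNNGAA. The printed Hsph1 window held both cores, and the stretch of capitals nearest its end is a TTCNNGAA and a GAANNTTC that share letters. A second Hsph1 window, chr5:149636266-149636565, held both cores as well. The Hspa1a and Hspa1b windows were identical at 296 of 300 bases, including the core. The letters of neither core were in the windows of Hspa4l, Hspa4, Hspa2, Hspa1l, Hspa5 or Plk4. The CCAAT box, searched on both strands and held by 37.9% of all windows, was in those of Hsph1, Hspa2, Hspa1l, Hspa1a, Hspa1b and Hspa5, with 4 matches in Hspa5. The consensus estrogen response element, an inverted repeat searched by its full letters, was held by 0.0666% of all windows and the cAMP response element TGACGTCA by 1.88%. Neither of these was in a member's window or in that of Plk4. The Hspa4l and Hspa2 windows lie inside the annotated spans of their genes. The base composition of the Hspa4l window was 74.7% G and C.

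Levels are given as CPM, the deposited scale on which every library has the same total, and the reads behind them were recovered from the step of that scale. A gene was compared when it reached 1 CPM in the higher library, and 8 of the 10 members did so. The call of higher or lower needed a 2-fold ratio of BPA over control, after 0.1 CPM was added to both values. Of the 8 members, 1 was called higher (Hspa4l), 0 were called lower and 7 lay within 2-fold. Over all 19389 genes compared, 3.28% were called, 1.32% higher and 1.95% lower, and because the members were chosen on this contrast nothing is read from the difference. The median log2 ratio of the 8 members was 0.004, as was that of all genes compared, and without Hspa4l the other 7 ran from -0.27 to 0.06. Ratios of CPM are given with exact 95% binomial (Clopper-Pearson) intervals of the reads, which cover counting error only. In bulk RNA, fewer cells of a type and less RNA per cell cannot be told apart.

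**Figure D1:**
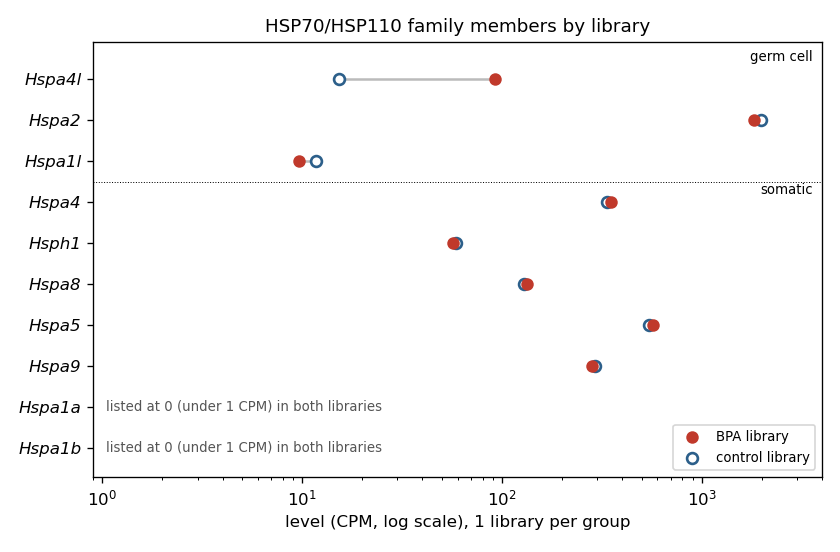
Level of each family member in BPA testes (filled circles) and control testes (open circles), in CPM on a log axis, with germ cell members above somatic ones. Hspa4l is at 92.7 CPM in BPA testes and 15.2 CPM in control testes, the other members at 1 CPM or more have nearly overlapping circles, and Hspa1a and Hspa1b are listed at 0 in both.

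Within the HSP110 branch, Hspa4l was higher in BPA testes, and its 2 paralogs lay close to a ratio of 1. Hspa4l, also called Apg-1, is a nucleotide exchange factor known from mouse testis in late spermatocytes and spermatids. It had 92.7 CPM (4208 reads) in BPA testes and 15.2 CPM (637 reads) in control testes, a ratio of 6.09 (5.60 to 6.62). The gene (ID 18415) spans chr3:40744500-40796103 on the plus strand in 21 merged exons, which share no base with an exon of another annotated gene and 0.356% of their 50-base words with other loci. In the authors' deposited table its log2 fold change was 2.61, with a p-value of 4.49e-15 and a q-value of 1.64e-11. That table compares 1 library with 1 library. Hspa4l is in the authors' deposited table of 16 higher genes, where it ranked 11 by fold change and 4 by q-value, and their rule called 0.0956% of all genes with a q-value.

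Hspa4 (chr11:53259814-53300479, minus strand), also called Apg-2, is the broadly expressed paralog of Hspa4l. It had 351 CPM in BPA testes and 337 CPM in control testes, a ratio of 1.04 (1.02 to 1.07). Hsph1 (chr5:149616843-149636498, minus strand), the HSP110 protein proper and a disaggregation partner of HSP70, had 56.8 CPM in BPA testes and 58.6 CPM in control testes, a ratio of 0.969 (0.916 to 1.02). The interval of Hsph1 includes a ratio of 1, and that of Hspa4 lies just above it.

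Per length, the make-up of the branch differed between the libraries. Summed over the 3 genes in CPM per kilobase of exon, Hspa4l made up 9.94% in BPA testes and 1.84% in control testes. Hspa4 made up 80.2% and Hsph1 9.87% in BPA testes, against 86.7% and 11.5% in control testes. Hspa4 was thus the leading member of the branch in both libraries, and Hspa4l was level with Hsph1 in BPA testes only. The ratio of Hspa4l to Hsph1 in CPM per kilobase of exon was 1.01 in BPA testes and 0.160 in control testes, and the ratio of Hspa4l to Hspa4 was 0.124 in BPA testes and 0.0212 in control testes. The ratio of Hsph1 to Hspa4 was 0.123 in BPA testes and 0.132 in control testes. These levels depend on the length used, because the exons of Hspa4l sum to 11792 bases and those of Hspa4 to 5528 bases, while their coding lengths are 2514 and 2526 bases. Per kilobase of coding length, Hspa4l made up 18.6% of the branch in BPA testes and 3.74% in control testes, and its ratio to Hsph1 was 1.67 in BPA testes and 0.266 in control testes.

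The other germ cell members did not share the difference of Hspa4l. Hspa2 (chr12:76403812-76406938, plus strand), the meiotic HSP70 of spermatocytes, had 1827 CPM (82905 reads) in BPA testes and 1976 CPM (82604 reads) in control testes, a ratio of 0.925 (0.916 to 0.934). At this depth the counting interval excludes 1, but it holds no spread between samples, and 11 of the 71 genes with a mean CPM within 2-fold of that of Hspa2 had a log2 ratio at least as far from 0. In the authors' deposited table Hspa2 had a p-value of 0.0192 and a q-value of 0.99996. Hspa1l (chr17:34972703-34979228, plus strand), the HSP70 of spermatids, had 9.67 CPM (439 reads) in BPA testes and 11.7 CPM (490 reads) in control testes, a ratio of 0.825 (0.724 to 0.941). Of the genes with a mean CPM within 2-fold of that of Hspa1l, 24.3% had a log2 ratio at least as far from 0. Its reads are uncertain, since 71.9% of its exon bases lie opposite exons of Gm10501 on the other strand, no strand-marking step was described, and 9.57% of its 50-base words also occur in Hspa1a. In CPM per kilobase of exon, Hspa2 was the highest member in both libraries, at 691 in BPA testes and 747 in control testes. Hspa1l was at 3.91 CPM per kilobase of exon in BPA testes and 4.74 in control testes, below Hspa4l in BPA testes and above it in control testes. Per kilobase of coding length, Hspa1l and Hspa4l were at 5.03 and 36.9 CPM in BPA testes. In control testes they were nearly level on that length, at 6.10 and 6.06 CPM.

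The cytosolic somatic members divide into the constitutive Hspa8 and the stress-inducible pair Hspa1a and Hspa1b. Hspa8 (chr9:40801276-40805202, plus strand), the housekeeping HSP70 that also uncoats clathrin vesicles, had 134 CPM in BPA testes and 129 CPM in control testes, a ratio of 1.04 (1.00 to 1.08). Reads of Hspa8 are uncertain, because 37.0% of its 50-base words occur at other loci, 34.6% in Gm15459. Hspa1a and Hspa1b lie on the minus strand of chromosome 17, and the span of Hspa1a begins 547 bases from that of Hspa1l, which runs the other way. Both are listed at 0 in both libraries, which in this table means under 1 CPM, or at most 45 reads in BPA testes and 41 reads in control testes. The pairs of whole reads that give the deposited fold change of Hspa1a run from 7 reads in BPA testes and 8 in control testes to 35 reads in BPA testes and 40 in control testes. For Hspa1b they run from 6 reads in BPA testes and 1 in control testes to 42 reads in BPA testes and 7 in control testes. The stress-inducible members were thus under the lower limit of the table in both libraries, and the authors' deposited table gives p-values of 0.9502 for Hspa1a and 0.774 for Hspa1b. The pair shares most of its sequence, with 58.8% of the 50-base words of Hspa1a also in Hspa1b, so reads cannot be divided between them with certainty. Whether reads that fit both genes were left out of the counts was not tested, so a listed 0 need not mean low RNA.

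The members of the organelles also lay close to a ratio of 1. Hspa5 (chr2:34772090-34776529, plus strand), the chaperone BiP of the endoplasmic reticulum and a marker of the unfolded protein response, had 567 CPM in BPA testes and 544 CPM in control testes, a ratio of 1.04 (1.03 to 1.06). Hspa9, the mitochondrial HSP70 mortalin encoded on chromosome 18, had 281 CPM in BPA testes and 292 CPM in control testes, a ratio of 0.962 (0.939 to 0.987). In the authors' deposited table, each of the 9 members other than Hspa4l had a q-value of 0.99996. Per kilobase of exon, Hspa5 was the highest of the somatic members in both libraries, at 134 CPM in BPA testes and 129 CPM in control testes. It was followed by Hspa9 at 65.3 and Hspa4 at 63.5 in BPA testes, against 67.8 and 60.9 in control testes. Hspa8 came next at 31.1 CPM per kilobase in BPA testes and 29.97 in control testes. The order of the 8 members per kilobase of exon differed between the libraries only in the lowest 3 places. There Hspa4l was above Hsph1 and Hspa1l in BPA testes and below both in control testes. This order depends on the length used. Per kilobase of coding length, Hspa4 and Hspa9 were at 138.9 and 138.2 CPM in BPA testes, against 133.3 and 143.6 in control testes. On that length Hspa1l and Hspa4l were nearly level in control testes, at 6.10 and 6.06 CPM. The levels of Hspa4l and Hsph1 in BPA testes were nearly equal per kilobase of exon, at 7.86 and 7.81 CPM. They were not so per kilobase of coding length, at 36.9 and 22.1 CPM.

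Taken as sums within a library, the germ cell members were not higher against the somatic ones in BPA testes. The 3 germ cell members summed to 1929 CPM and the somatic members to 1390 CPM in BPA testes, a ratio of 1.39, against 2003 and 1360 CPM in control testes, a ratio of 1.47. The BPA ratio was 0.942 of the control ratio. As parts of these CPM sums, Hspa2 differed by -149 CPM (BPA minus control) and Hspa4l by 77.5 CPM. Without Hspa4l the ratio was 1.32 in BPA testes and 1.46 in control testes, and per kilobase of exon it was 2.33 in BPA testes and 2.55 in control testes. Hspa2 alone made up 68.8% of the CPM per kilobase of exon of the 8 members in BPA testes and 71.3% in control testes.

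Among genes of like level, few had a ratio as large as that of Hspa4l. Its mean CPM over the libraries was 54.0, and 4052 genes had a mean within 2-fold of it. Of these, 22 genes were called (0.543%), and 11 had a log2 ratio at least as large in size, in either direction and with Hspa4l counted. Over all 19389 genes compared, 41 had a log2 ratio at least that of Hspa4l. Because Hspa4l was chosen with its ratio in these libraries known, these counts only describe its place and carry no test. For the members other than the germ cell ones, between 39.8% and 69.0% of genes of like level had a log2 ratio at least as far from 0.

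**Figure D2:**
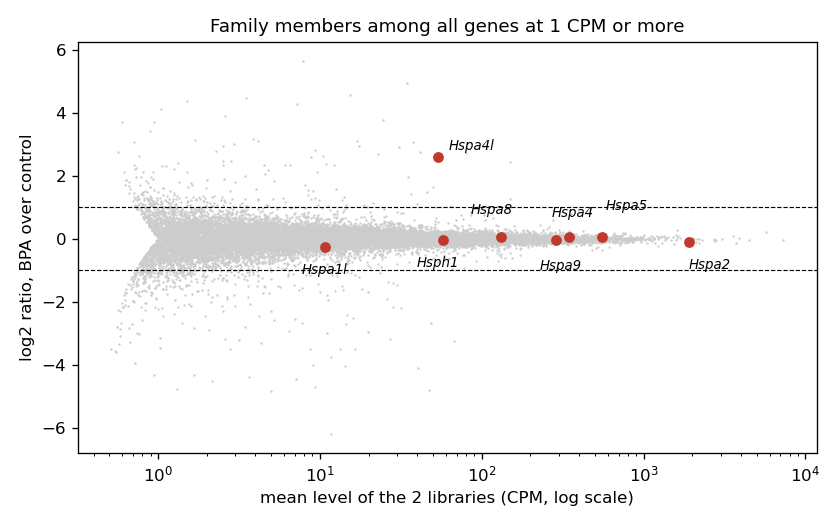
Log2 ratio of BPA over control against the mean level of both libraries in CPM (log axis) for the 19389 genes at 1 CPM or more (grey), with the 8 family members at that level in red and dashed lines at 2-fold. Hspa4l lies at 2.60 and the other members between -0.27 and 0.06, within the dashed lines.

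The genes nearest to Hspa4l in the log2 CPM of both libraries, leaving out unnamed clones, were Tex22, Rnf181 and Psmb6. With 2 libraries this likeness says only that the pairs of levels are close. Tex22, a gene expressed in testis, had 72.8 CPM in BPA testes and 10.7 CPM in control testes, at a distance of 0.62 log2 units. Rnf181, which encodes a ubiquitin ligase, had 75.3 CPM in BPA testes and 24.3 CPM in control testes, at 0.74 units. Psmb6, a catalytic subunit of the proteasome, had 139 CPM in BPA testes and 21.2 CPM in control testes, at 0.75 units. They lie on chromosomes 12, 6 and 11, and Hspa4l on chromosome 3.

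Plk4, the kinase that starts centriole duplication, lies 3.85 kb beyond the end of Hspa4l on the same strand and had a ratio of similar size. It had 18.1 CPM (820 reads) in BPA testes and 2.87 CPM (120 reads) in control testes, a ratio of 6.29 (5.19 to 7.69), which overlaps the interval of Hspa4l. In the authors' deposited table Plk4 had a p-value of 4.7e-04 and a q-value of 0.226, so it is not in their list. Of its 50-base words 3.83% occur at other loci. Whether reads that run past the end of Hspa4l add to Plk4 was not tested, since the files hold no position of reads within genes.

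Of the 13 neighbours within 1 Mb of Hspa4l that reached 1 CPM, 2 were called higher (Plk4 and Abhd18) and 0 lower (15.4%, where 3.28% of all genes were called), with a median log2 ratio of -0.17. Abhd18, 74.99 kb away, had 1.94 CPM (88 reads) in BPA testes and 0.742 CPM (31 reads) in control testes, a ratio of 2.62 (1.72 to 4.08), and its exons overlap those of Gm2011 and 6430590A07Rik. With a pseudocount of 1 CPM, or a minimum level of 4 CPM, Plk4 alone was called. Upstream, the germ cell ADP/ATP carrier Slc25a31 at 18.4 kb and the cilium gene Intu at 39.7 kb had log2 ratios of -0.61 and -0.60, both under 2 CPM in either library. Larp1b, Sclt1, Pgrmc2 and Jade1 each had more reads than Plk4 in both libraries, with log2 ratios from -0.20 to 0.28. Larp1b, an RNA-binding protein, had 434 CPM in BPA testes and 447 CPM in control testes, and the centriole appendage gene Sclt1 had 172 CPM in BPA testes and 197 CPM in control testes. Pgrmc2, a membrane heme-binding protein, had a log2 ratio of -0.17 and the chromatin factor Jade1 of 0.28. The remaining 5, Gm10731, D3Ertd751e, 1700034I23Rik, 1700017G19Rik and 1700052H01Rik, had log2 ratios from -0.37 to 0.15, with all words of the Gm10731 pseudogene also found elsewhere.

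**Figure D3:**
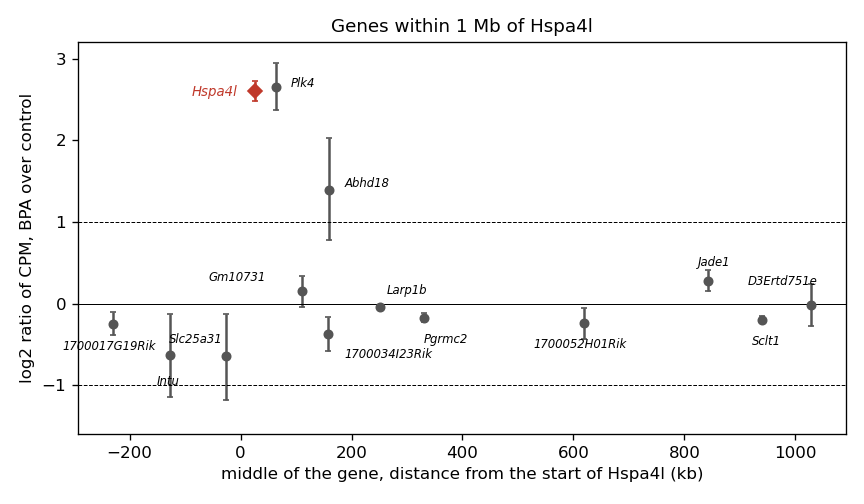
Log2 ratio of BPA over control for Hspa4l (red diamond) and the 13 genes within 1 Mb of it at 1 CPM or more (grey), against the distance of the middle of each gene from the start of Hspa4l in kb, with 95% counting intervals as bars and dashed lines at 2-fold. Ratios here are without the added 0.1 CPM. Hspa4l, Plk4 and Abhd18 lie above 2-fold and the other 11 genes within it.

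The same window around the other members gave few called genes except on chromosome 17. For Hspa2, Hspa8 and Hspa9, 0 of 15, 0 of 10 and 0 of 33 neighbours were called. Hspa4 had 1 of 20, the cytokine gene Il13 at 0.639 CPM in BPA testes and 1.58 CPM in control testes. Hsph1 had 1 of 23 (Gm8615, lower) and Hspa5 1 of 22 (Gm39797, lower). Hspa1l, in the major histocompatibility region, had 12 of 50 (24%, where 3.28% of all genes were called), with 6 higher and 6 lower, and the windows of Hspa1a and Hspa1b hold nearly the same genes. The higher ones were Brd2, Tap2, Ehmt2, Abhd16a, Prrc2a and Aif1. Tap2 was at the limit of the rule, with a log2 ratio of 1.00 from 61 reads in BPA testes and 26 in control testes. The nearest of the higher ones, the histone methyltransferase gene Ehmt2, lies 58.6 kb from Hspa1l. It had 67.5 CPM in BPA testes and 24.0 CPM in control testes. The lower ones were Rxrb, Fkbpl, Nfkbil1, H2-D1, Mrps18b and Gm32655, each under 6 CPM in both libraries apart from Mrps18b, a mitochondrial ribosome gene at 1.32 CPM in BPA testes and 16.1 CPM in control testes.

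The partners of the family in the chaperone cycle lay within 2-fold where they could be compared. Of 114 genes in 7 chaperone lists, 108 reached 1 CPM. Of these, 0 were called in either direction, where 3.28% of all genes compared were called. Their median log2 ratio was 0.01, with a range from -0.57 to 0.52. The share called is smaller at higher levels. Among genes with a mean CPM within 2-fold of that of Hspa1l (10.7 CPM), 1.45% were called. The share was 0.543% at the level of Hspa4l (54.0 CPM) and 0.150% at that of Hspa8 (131 CPM). Nothing is therefore read from the count of 0. In the authors' deposited table no gene of these lists is among the 28 listed.

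Other HSP70 relatives (5 of 5 at 1 CPM) had a median log2 ratio of 0.05. Hspa12a, an atypical member, had 18.8 CPM in BPA testes and 15.9 CPM in control testes. Hspa14 works with the J-domain protein Dnajc2 at the ribosome, and had 23.7 CPM in BPA testes and 21.8 CPM in control testes. Dnajc2 itself had a log2 ratio of -0.19. Hspa13 (-0.07) and Hyou1 (0.05), the HSP110-like exchange factor of the endoplasmic reticulum, were closer to 0 on the log2 scale.

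The J-domain list (48 of 49) had a median log2 ratio of 0.02. Its largest ratio was that of Dnajc24, a diphthamide synthesis protein, with 13.6 CPM in BPA testes and 9.45 CPM in control testes, followed by Dnajc4 (0.22) and Dnajc12 (0.21). Of J-domain proteins known from spermatids, Dnajb3 had 895 CPM in BPA testes and 876 CPM in control testes (log2 ratio 0.03). Dnajb13, of the sperm axoneme, had 298 CPM in BPA testes and 266 CPM in control testes (log2 ratio 0.17). Both were named after their values were seen.

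Other HSP70 exchange factors and cofactors (15 of 15) had a median log2 ratio of -0.02. Members with the largest log2 ratios in size were Bag2 (-0.28), Bag4 (-0.27) and Bag6 (-0.17), named for the BAG domain, and the mitochondrial exchange factor Grpel2 (0.14). Thus Hspa4l was the only exchange factor of those listed that was 2-fold apart between these libraries.

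In the HSP90 system (16 of 16, median 0.04), the steroid receptor cochaperone Fkbp5 had 5.75 CPM in BPA testes and 8.59 CPM in control testes, and Unc45a, a myosin chaperone, 14.9 CPM in BPA testes and 11.7 CPM in control testes. Cdc37l1 (0.16) and Ppid (0.15) followed on the log2 scale. Chaperonins (11 of 11, median -0.01) were closest together, with the mitochondrial pair Hspe1 at 0.14 and Hspd1 at -0.05, and the cytosolic ring subunits Cct2 at 0.05 and Cct4 at -0.03. Small heat shock proteins (8 of 11, median 0.02) ran from -0.15 for Hspb11, a cilium transport protein, to 0.20 for Cryab at 1.70 CPM in BPA testes and 1.46 CPM in control testes, with Hspb8 at 0.18 and Hspb1 at 0.11. Heat shock factors and their binding protein (5 of 7, median -0.05) held Hsf1, the main activator of the heat shock response, at 42.4 CPM in BPA testes and 43.9 CPM in control testes. Hsf5, a factor of spermatocytes, had 42.4 CPM in BPA testes and 57.2 CPM in control testes, and Hsfy2 (-0.07) and Hsbp1 (-0.03) were nearer 0 on the log2 scale.

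**Figure D4:**
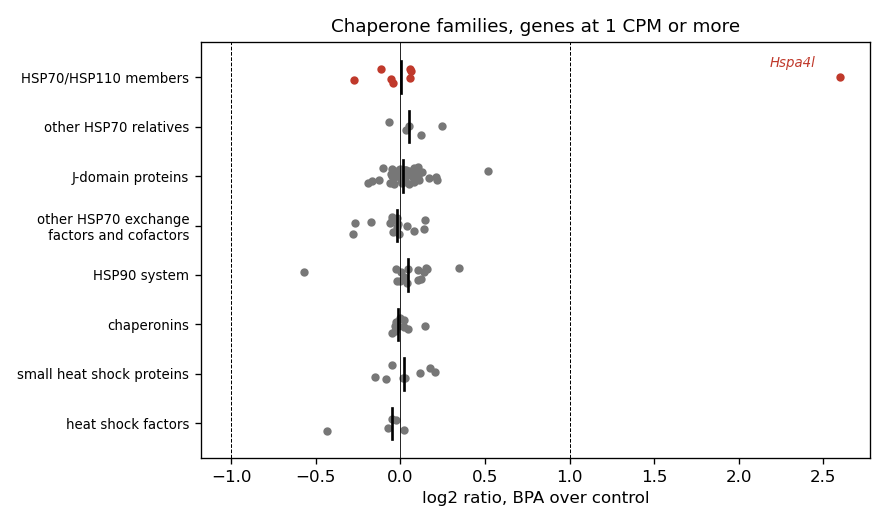
Log2 ratio of BPA over control for each gene at 1 CPM or more in the HSP70/HSP110 family (red) and 7 lists of partner chaperones (grey), with the median of each list as a black bar and dashed lines at 2-fold. Vertical scatter within a list only separates the points. Hspa4l is at 2.60, and the 108 genes of the other lists lie between -0.57 and 0.52.

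Markers of the testis cell types were present in both libraries. Of 16 spermatocyte and 16 round spermatid markers, the stages known for Hspa4l, 0 were called in either direction, against 3.28% of all genes compared, and their summed levels were 3810 and 2620 CPM in BPA testes, against 3967 and 2634 CPM in control testes. The 16 spermatogonia and 16 elongating spermatid markers also had 0 called. Leydig markers had 0 of 10, peritubular 0 of the 5 at 1 CPM (Tagln, the other listed, did not reach it) and macrophage 0 of 9. The share called is smaller at higher levels, at 0.543% near the level of Hspa4l. Nothing is therefore read from these counts of 0. Sertoli markers had 1 of 16 called (Rhox8, lower), while 14 of 16 had a log2 ratio above 0, with a median of 0.19 and a summed level of 1558 CPM in BPA testes and 1392 CPM in control testes. Adipose markers had 7 of 10 called lower, where 1.95% of all genes compared were called lower, and a summed level of 32.8 CPM in BPA testes and 89.8 CPM in control testes. The other 3, Adipoq, Plin1 and Cidea, lay within 2-fold, with log2 ratios of -0.16, -0.12 and 0.60. The part of any of these cell types in the levels of the family was not tested.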

How the data were processed

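Poly(A) libraries of testis were sequenced for 2 groups, 1 library each, with 3 samples mixed per library. Per the submitters' processing notes, HISAT2 2.0.4, HTSeq 0.6.1 and build mm10 were used. The sources used here do not give the annotation, strand setting, scaling or test program. CPM values were deposited by the authors under headings that call them read counts, with values under 1 CPM written as 0, beside a log2 fold change and p-values with q-values per gene. Deposited CPM are whole multiples of 1 step (0.0220 CPM for BPA, 0.0239 CPM for control), taken as 1 read, so that listed genes hold 45162887 BPA reads and 41711330 control reads. Where 1 library was listed at 0, its value was filled from the authors' fold change (812 BPA values, 592 control values). The design had assumed values without that limit. PCR copies are not independent molecules, and intervals cover counting error only.

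The comparison used Python 3.11.15, pandas 2.3.3 and SciPy 1.17.1, and its scripts were tested on simulated data. Genes at 1 CPM in the higher library were compared by log2 ratio with a pseudocount of 0.1 CPM and called at 2-fold, and no count model was fitted. Positions and exons are from RefSeq and GENCODE annotations of GRCm38, and 40269 of 41571 numeric IDs matched. Genes named are all members, up to 4 genes of each chaperone list, ranked by the size of the log2 ratio, neighbours within 1 Mb of Hspa4l at 1 CPM, called neighbours of the other members, and the 3 genes nearest to Hspa4l in both levels. The members, the 7 chaperone lists and the 9 marker lists were chosen with earlier results of these data known. Coding lengths are those of the longest coding transcript of each gene. Alternatives varied the pseudocount, the minimum level, the scaling, the size rule and the lengths, and the setting with listed zeros kept at 0 was chosen after seeing the data.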

Additional observations from a re-analysis of the deposited data

How the results depend on the processing

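Hspa4l was the 1 member called, and 0 genes of the chaperone lists were called, under each setting run. The log2 ratio of Hspa4l ran from 2.53 (pseudocount of 1 CPM) to 2.61 (none). The 2 neighbours of Hspa4l called became 1, Plk4 alone, with a pseudocount of 1 CPM, with a minimum of 4 or 10 CPM, and when the nearer interval bound had to reach 2-fold. They became 4 under a 1.5-fold rule, with Intu and Slc25a31 lower. Over all genes, 635 calls became 205 with a pseudocount of 1 CPM, 183 and 95 with a minimum of 4 and 10 CPM, 1870 at 1.5-fold, 262 by the nearer bound, and 1623 with listed zeros kept at 0. The germ cell over somatic ratio, as BPA over control, was 0.942, and it was 0.913 per kilobase of exon and 0.904 without Hspa4l. Median of ratios and trimmed mean scalings moved log2 ratios by -0.004 and -0.003. No paired analysis was possible because each group has 1 library. With 1 mixed library per group, differences between animals and between library preparations cannot be told apart from the exposure, and Hspa1a and Hspa1b, under 1 CPM in both libraries, have read numbers known only as ranges.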
